A study of Mus musculus with 16 samples.

Results

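The mRNAs of cytosolic ribosomal proteins were followed through a CPEB4 RNA-immunoprecipitation and sequencing (RIP-seq) experiment in mouse bone marrow-derived macrophages (BMDMs). A gene was included when its symbol was Rpsa or was built as Rpl or Rps, an optional p, digits, an optional lower-case letter and an optional digit, with no pseudogene suffix. This took 80 of the 14925 genes with a symbol, 47 of the large and 33 of the small subunit. Each gene was represented by its annotated 3′-UTR region with the most reads. Of these symbols, Rps3a2 and Rps3a3 are processed pseudogenes in GENCODE M21 and Rps4l is a transcribed processed pseudogene, while Rpl7l1, Rpl22l1 and Rps27l are paralogs of Rpl7, Rpl22 and Rps27. The rule used names only, so no measured value chose a gene.

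Macrophages were grown from bone marrow of adult mice of the C57BL/6J 129 background, either wild-type (WT, the culture numbered 76) or full Cpeb4-/- knockouts (CPEB4 KO, the culture numbered 73). Each culture was left untreated or received 10 ng/ml of lipopolysaccharide (LPS), which is shed by Gram-negative bacteria and sensed by TLR4, for 9 h. The RNA pulled down by antibody to CPEB4 (RIP) and that of the lysate (Input, depleted of ribosomal RNA) were sequenced, so that the KO RIP holds what the procedure recovers without its antigen. The 16 samples are 8 libraries run on lanes 7 and 8, which the deposited columns sum. Each condition is therefore 1 library of 1 culture, with no replicate, no error between cultures and no test.

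Cytosolic ribosomal proteins build the 40S and 60S subunits together with ribosomal RNA, and their mRNAs are abundant and stable. Most of these mRNAs start with a 5′ terminal oligopyrimidine (TOP) tract, through which mTORC1 and LARP1 set their translation, and carry short 3′-UTRs. CPEB4 binds cytoplasmic polyadenylation elements (CPEs), U-rich motifs of the 3′-UTR, and sets the length of the poly(A) tail.

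The counted regions were short. Their median length was 93 bases (range 4 to 4722) against 1014 bases over all genes, and 42 of 80 (52.5%) were under 100 bases, against 4.92% of all genes. The genes had a median of 56 reads over the 8 libraries, and 19 of them had under 20 reads in all. Rpl7, Rpl23a, Rpl30, Rpl35a and Rps3a3 had 1 read each, and Rpl3, Rps2, Rps13 and Rps4l had 2 each. Rpl41 (2003 reads) and Rps9 (1607 reads) held 27.8% of the 12998 reads of the family, and the 10 genes with the most reads held 60.6%.

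The ends of the counted regions are shown for the genes with the densest reads, since these ends set which reads were counted (GRCm38, the build of the files). The polyadenylation hexamer AATAAA is in capitals. It was found in the last 30 bases for Rplp1 (chr9:61913284-61913313, - strand) and Rps9 (chr7:3706866-3706895, + strand), and not for Rpl41 (chr10:128548114-128548143, - strand).
Rplp1: ttaagttggctAATAAAgagctgaacctgt
Rps9: cagctgaaaAATAAAaaagaattgatactt
Rpl41: aaccctcttgcagtcagctgaagaatcaaa
AATAAA was found in the last 40 bases of 53 of the 80 regions (66.3%) and of 59.7% of all regions.

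CPE letters were found in a smaller share of these regions than of all regions. TTTTAT or TTTTAAT on the transcribed strand was found in 21 of 80 regions (26.3%) against 57.4% of all regions. Among regions under 100 bases the shares were 5 of 42 (11.9%) and 5.71%. At least 2 ATTTA pentamers, the core of AU-rich elements, were found in 9 of 80 (11.3%) against 45.8% of all regions. The authors' CPE prediction was given for 14 of the 80 genes (17.5%) and for 31.8% of all genes. Of the 10 genes with the most reads it was given for Rpl22, Rpl13a and Rpl27a, as early activation, and for Rpl7l1, as repression. A CPE of 3 of them is shown with its letters in capitals, from Rpl22 (chr4:152333986-152334013, + strand), Rpl13a (chr7:45125576-45125603, - strand) and Rpl7l1 (chr17:46775184-46775211, - strand).
Rpl22: aacttgctggtTTTTATgcctttctaac
Rpl13a: tttctggaggaTTTTATgtgctaataaa
Rpl7l1: acagcctgcatTTTTATgcacattggtc
From the last base of the motif, the end of the region lay 69 bases away in Rpl22, 29 bases in Rpl13a and 1288 bases in Rpl7l1.

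RefSeq start sites (GRCm38) were found for 57 of the 80 genes. A C followed by at least 4 further pyrimidines at the annotated first base was found in 12 of them (21.1%) and in 2.95% of the 11167 genes of the count table with a start site. The same letters anywhere from 5 bases before to 11 bases into the transcript were found in 29 (50.9%) and in 24.8%. Annotated starts can miss the true first base. The tract is in capitals in the starts of Rpl15 (chr14:18270967-18270986, - strand), Rps6 (chr4:86857348-86857367, - strand) and Rplp2 (chr7:141447651-141447670, + strand), shown as examples of the motif.
Rpl15: CTTCCTTTCCTCTggcggca
Rps6: CTCTTTTTCgtgacgcctcc
Rplp2: CTTTCgccgccggacgccgc

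Summed over rows with a symbol, the 8 libraries gave 467696 (KO RIP, untreated) to 2492300 reads (WT RIP, LPS). Overlapping regions of a gene count the same read more than once, so these sums exceed the number of distinct reads. With 1 region per gene the sums of these libraries were 271428 and 1505841. Reads of the Cpeb4 3′-UTR, which a deletion of coding exons need not remove, came to 130 and 136 per 1000000 reads in the WT Inputs and 52.0 and 52.6 in the KO Inputs. In the RIPs they came to 836 and 770 in WT and 257 and 367 in KO (untreated, LPS), so they lay above Input in the KO too. The 10 LPS response genes tested were all higher with LPS in the Inputs of each genotype, with median log2 ratios of 6.46 (WT) and 6.95 (KO). The 9 macrophage markers summed to 1784 to 4554 reads per 1000000, and each of the T cell, B cell, erythroid, fibroblast and granulocyte lists to at most 10.7. Fewer cells of a type and less RNA per cell cannot be told apart in such libraries.

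A ratio is given as the log2 ratio of reads, each library scaled to its sum over rows with a symbol and with 1 read added, and its 95% interval covers counting error only. A gene counts as tested when both libraries together gave it at least 20 reads, and as higher or lower where the log2 ratio is beyond 0.5 and the interval leaves out 0. The counts of ribosomal protein genes are set beside the percentage of all genes tested that met the same limits. Overlaps between lists of ribosomal protein genes have no such value, since the overlap over all genes was not computed. Medians are over the genes tested, which can be those that are high in one library of the pair, so the summed reads of all 80 genes are given beside them.

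Of the 3′-UTR reads over rows with a symbol, the share that fell in ribosomal protein regions was highest in the KO RIPs. The order rests on this base. Such 3′-UTR reads, summed over rows that can repeat a read, came to 27.3% and 31.8% of the KO RIP totals recovered from the authors' RPKM (untreated, LPS). They were 48.9% and 70.1% of the WT RIP totals, and 46.4% to 51.1% of the Input totals. The ribosomal protein share is given here of 3′-UTR reads only. It was 0.251% (95% Wilson interval 0.237 to 0.266) in the untreated and 0.164% (0.156 to 0.173) in the LPS KO RIP. The WT RIPs held 0.132% (0.127 to 0.138) and 0.0804% (0.0770 to 0.0840). In the Inputs the share was 0.148% (0.140 to 0.156) untreated and 0.0936% (0.0894 to 0.0981) with LPS in WT, and 0.119% (0.113 to 0.125) and 0.0971% (0.0923 to 0.102) in KO. The LPS library held the smaller share in each of the 4 pairs.

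Levels of different genes were compared per length, as reads per 1000000 per kilobase of the region extended by 99 bases, since a 100-base read is counted when it touches the region. In the untreated WT Input the highest levels were those of Rpl41, a small peptide of the large subunit (747), Rplp1 of the P stalk (395), Rps9 of the small subunit (224) and Rpl29 of the large subunit (217). Rpl8 and Rps16 followed with 164 and 159, which rested on 21 and 23 reads and did not differ beyond counting error. Rpl41, Rplp1 and Rps9 were also the highest in the untreated KO Input, with levels of 448, 304 and 180. In the untreated KO RIP the order began with Rpl41 (1052), Rplp1 (831) and Rpl13 (500).

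**Figure D1:**
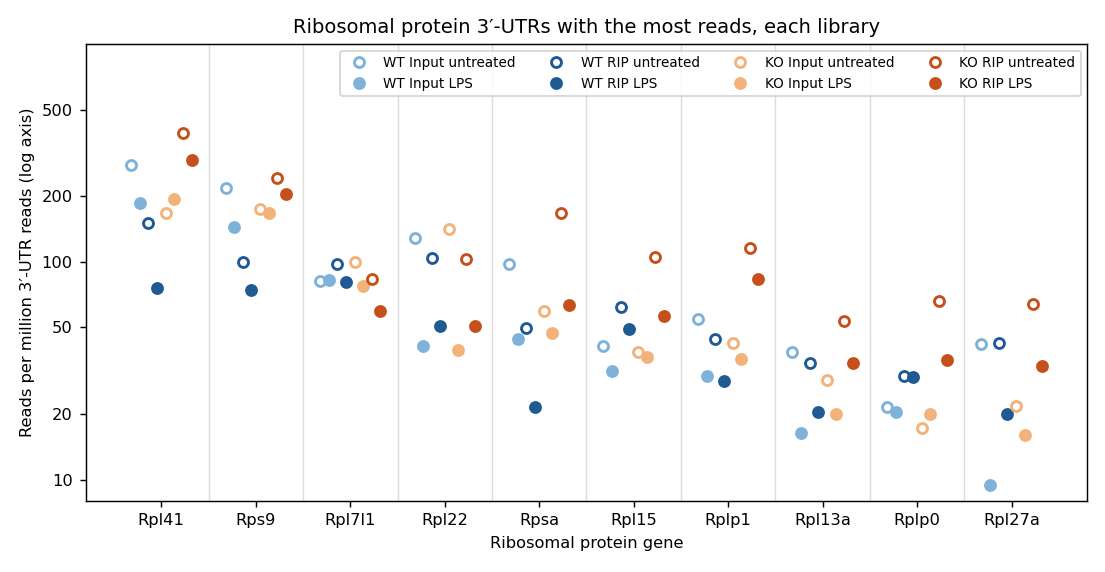
Reads per 1000000 3′-UTR reads, summed over rows with a symbol (log axis), of the 10 ribosomal protein genes with the most reads. Each of the 8 libraries has 1 point (open, untreated, and filled, LPS). Rpl41 ranged from 75.8 in the LPS WT RIP to 391 in the untreated KO RIP, and Rpl7l1 from 59.7 to 100.

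The WT RIP was compared with its Input to ask which of these mRNAs were recovered with CPEB4 beyond their abundance. The family as a whole lay close to Input. The summed reads of all 80 genes gave a log2 ratio of -0.16 (-0.25 to -0.06) untreated and -0.22 (-0.31 to -0.13) with LPS. Without Rpl41 and Rps9 these values were 0.13 (0.02 to 0.25) and 0.11 (0.00 to 0.22), so the sign rested on the 2 genes with the most reads. The 39 genes tested had a median of 0.06 untreated, against 0.05 over all genes tested, and 39 genes had a median of 0.14 with LPS, against -0.00.

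Genes were found on both sides. Untreated, 8 of 39 were higher, where 31.4% of all genes were, and 7 were lower, where 29.8% were. With LPS, 9 of 39 were higher (31.9% of all genes) and 9 lower (34.4%), which became 15 and 6 with library totals recovered from the authors' RPKM (46.2% and 22.4%). Rpl5, Rpl15, Rpl32, Rpl39, Rplp2 and Rps20, or 6 genes, were higher in both conditions, and Rpl10, Rpl28, Rpl29, Rpl31, Rpl41, Rps9 and Rpsa, or 7, were lower in both. The Rps9 result holds for its 875-base region, with 203 and 275 WT Input and 167 and 185 WT RIP reads (untreated, LPS). Its 73-base region (chr7:3706829-3706901) had 39 and 57 Input and 58 and 65 RIP reads. No ratio was computed for that region.

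Rpl5, which carries 5S rRNA into the large subunit together with Rpl11 and can bind MDM2, had the highest ratio among genes with at least 50 reads. It had 8 untreated and 7 LPS reads in the WT Inputs and 86 and 54 in the WT RIPs, with ratios of 2.43 (1.44 to 3.42) and 2.39 (1.32 to 3.46). In the KO it had 16 and 9 Input reads and 38 and 26 RIP reads, with ratios of 2.70 (1.88 to 3.52) and 2.22 (1.17 to 3.27). The WT and KO intervals of Rpl5 overlapped in both conditions.

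Rpl39, a protein of the polypeptide exit tunnel, behaved alike, with ratios of 1.80 (0.72 to 2.88) and 1.85 (0.96 to 2.75) in WT and of 2.06 (1.11 to 3.0) and 2.33 (1.42 to 3.24) in KO. Of the 8 genes higher in the untreated WT RIP, 7 were also higher in the KO RIP, and with LPS 8 of 9 were. Whether all genes overlap to a like degree was not tested. The exceptions were Rplp2 in both conditions, which had too few KO reads to be tested (0 and 2 in the Inputs, 6 and 11 in the RIPs).

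Rpl29 lay at the other end. It had 44 and 56 reads in the WT Inputs and 10 and 11 in the WT RIPs, with ratios of -2.87 (-3.83 to -1.92) untreated and -2.64 (-3.54 to -1.74) with LPS. In the KO it had 35 and 62 Input reads and 11 and 14 RIP reads, with ratios of -0.08 (-1.02 to 0.86) and -1.28 (-2.10 to -0.47). The last 100 bases of the Rpl29 region were found at 60 other genomic places, 3 of them identical.

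The KO RIP was compared with its Input, which measures recovery in the absence of CPEB4. Here ribosomal protein genes were higher as a family. The summed reads of all 80 genes gave 1.08 (0.97 to 1.19) untreated and 0.76 (0.65 to 0.86) with LPS, and 1.15 (1.02 to 1.28) and 0.91 (0.78 to 1.03) without Rpl41 and Rps9. The 33 genes tested had medians of 1.45 and 0.89, against -0.05 and -0.06 over all genes. Untreated, 23 of 33 were higher, where 21.1% of all genes were, and 0 were lower, where 18.1% were. With LPS, 21 of 33 were higher (22.4% of all genes) and 1, Rpl29, was lower (21.7%). Shared by both conditions were 18 genes, or 78.3% of those higher untreated and 85.7% of those higher with LPS. Scaled to library totals recovered from the authors' RPKM, 14 of 33 were higher and 3 lower untreated, and 8 and 4 with LPS, where 6.35% and 7.31% of all genes were higher and 51.1% and 51.7% lower.

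Rpl13, a protein of the large subunit, had the highest untreated KO ratio of the genes tested. It had 7 reads in each KO Input and 33 and 29 in the KO RIPs, with ratios of 3.59 (2.48 to 4.70) untreated and 2.69 (1.57 to 3.82) with LPS. In WT it had 13 and 14 Input reads and 36 and 35 RIP reads, with ratios of 0.56 (-0.33 to 1.45) and 0.87 (0.00 to 1.74). Rpl32 had ratios of 2.29 (1.22 to 3.36) and 2.87 (1.76 to 3.98) in KO.

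Rpl41 and Rpsa, the laminin receptor homolog of the small subunit, lay on opposite sides of Input in the untreated genotypes. Rpl41 had 258 Input and 252 RIP reads in untreated WT, a ratio of -0.88 (-1.13 to -0.63), and 221 and 183 in untreated KO, a ratio of 1.23 (0.95 to 1.51). With LPS it had 352 and 189 reads in WT (-1.29, -1.54 to -1.03) and 291 and 257 in KO (0.61, 0.37 to 0.85). Rpsa had 91 Input and 83 RIP reads in untreated WT, a ratio of -0.97 (-1.40 to -0.55), and 79 and 78 in untreated KO, a ratio of 1.49 (1.04 to 1.93). The raw reads of Input and RIP were thus close within each untreated genotype, but the libraries differed in depth. The Input and RIP sums over rows were 929054 and 1665914 in untreated WT, and 1325968 and 467696 in untreated KO.

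**Figure D2:**
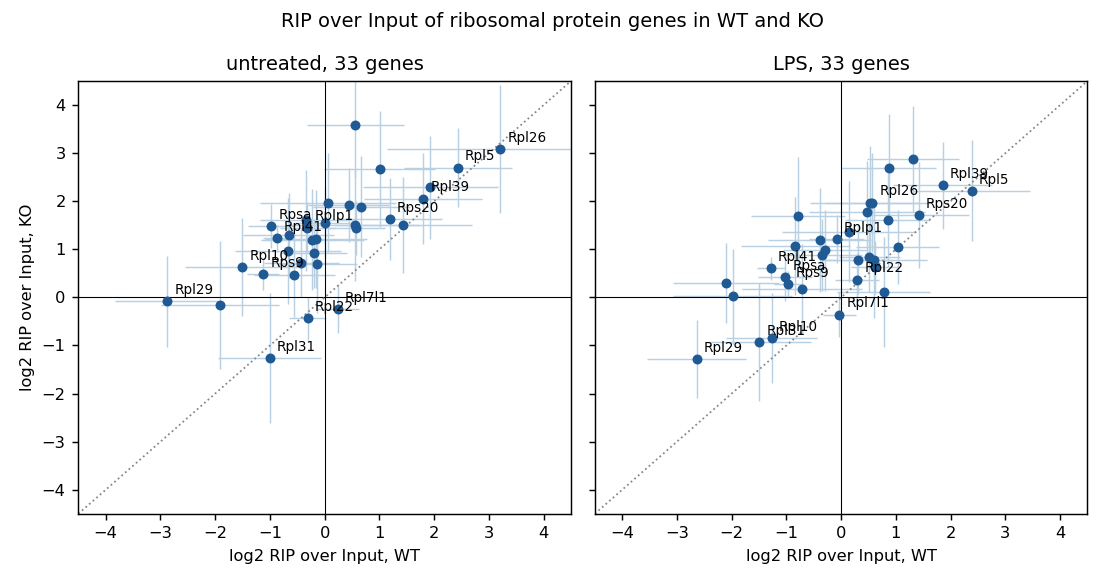
Log2 RIP over Input of ribosomal protein genes tested in both genotypes, WT on the x axis and KO on the y axis, untreated (left) and LPS (right), with 95% counting intervals and a dotted line of equal values. Most points lie above the dotted line, while untreated Rpl5 (2.43 and 2.70) and Rpl22 (-0.31 and -0.44) lie near it.

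The RIPs of both genotypes were compared directly to ask which mRNAs were recovered in a CPEB4-dependent way. Scaled to 3′-UTR reads, none of the genes tested was higher in the WT RIP. Untreated, 27 of 40 were lower, where 18.4% of all genes were, and 0 higher, where 15.1% were. With LPS, 24 of 40 were lower (21.4% of all genes) and 0 higher (19.3%). The medians of the 40 genes were -1.0 and -1.06, against -0.03 and 0.05 over all genes, and the summed reads of all 80 gave -0.92 (-1.03 to -0.82) and -1.03 (-1.13 to -0.93). Shared by both conditions were 17 genes, or 63.0% of those lower untreated and 70.8% of those lower with LPS.

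The sign of these ratios depended on the scaling. The library totals recovered from the RPKM shift every WT over KO RIP ratio up by 0.84 untreated and 1.14 with LPS. The 3′-UTR reads summed over rows came to 48.9% and 70.1% of the WT but 27.3% and 31.8% of the KO RIP totals. With these totals 3 of 40 genes were higher and 5 lower untreated, where 51.7% of all genes were higher and 1.73% lower. With LPS 6 were higher and 2 lower, where 68.5% and 1.88% were. With TMM factors 15 were lower and 0 higher untreated (12.3% and 21.7% of all genes), and with LPS 19 were lower and 1 higher (15.4% and 29.2%). Each scaling shifts the ratios of all genes alike, so it cannot change the distance between the median of the ribosomal protein genes and that of all genes. This distance was -0.97 untreated and -1.11 with LPS. When genes with at least 1 read in the pair were taken, it was -0.55 and -0.58.

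Rplp1, an acidic protein of the P stalk that recruits translation factors, had many reads on few start positions. Its 40-base region (chr9:61913284-61913323) had 51 and 57 reads in the WT Inputs, 56 and 54 in the KO Inputs, 74 and 71 in the WT RIPs and 54 and 73 in the KO RIPs, untreated first. Its WT over KO RIP ratios were -1.39 (-1.89 to -0.88) and -1.56 (-2.02 to -1.09). With duplicates removed, a region can hold 1 read per start position and strand, and Rplp1 had 278 positions, of which at most 26.6% were filled in a library. Rpl41 filled at most 47.3% of 744, and 9 of the 80 genes filled over 10% of theirs in some library. Corrected for filled positions, the distance from all genes was -0.99 untreated and -1.13 with LPS, and without these 9 genes it was -0.95 and -0.82.

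Region length moved with the result. Other genes with regions under 100 bases had WT over KO RIP medians of -1.10 (43 genes) untreated and -0.68 (85 genes) with LPS, and ribosomal protein genes of that length had -1.06 (16 genes) and -1.29 (17 genes). From 100 to under 500 bases, ribosomal protein genes had -0.98 and -0.85 and other genes -0.25 and -0.29. At 500 bases and over, they had -0.78 and -0.49 (13 genes each) and other genes 0.02 and 0.10. In KO RIP over Input, other genes under 100 bases had a median of -0.18 in both conditions, where ribosomal protein genes had 1.48 and 1.21. At 500 bases and over, ribosomal protein genes had KO RIP over Input medians of 1.20 and 0.42 and other genes -0.02 and -0.01. The part of length in the result was not tested further.

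**Figure D3:**
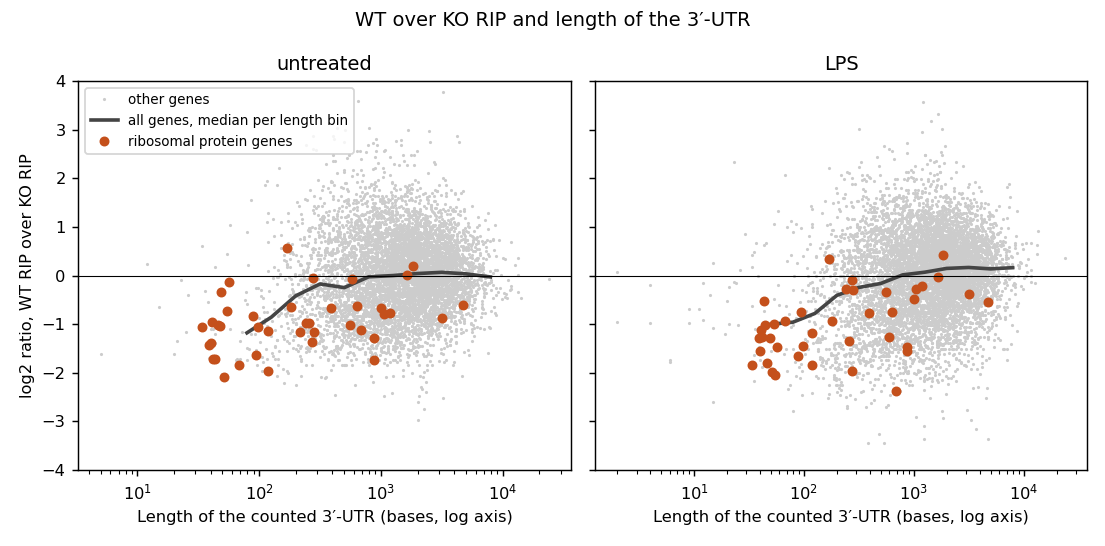
Log2 WT over KO RIP against the length of the counted region, for ribosomal protein genes (points) and the median of all genes per length bin (line), untreated and LPS, with the y axis limited to 4 on either side of 0. Short regions lie lower in both sets, and ribosomal protein genes of 100 to under 500 bases, with medians of -0.98 and -0.85, lie below other genes.

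A few genes stayed near 0 between the RIPs. Rpl7l1 had 162 and 202 WT RIP reads and 39 and 52 KO RIP reads, with ratios of 0.19 (-0.30 to 0.69) and 0.42 (-0.01 to 0.86). Rpl22, a protein of the large subunit with roles in lymphocyte development, had 174 and 126 WT and 48 and 44 KO RIP reads, with ratios of 0.00 (-0.45 to 0.46) and -0.02 (-0.51 to 0.47). Both have long regions, of 1830 and 1647 bases, and a predicted CPE. Of the other genes with a prediction and enough reads, Rpl13a had -0.68 and -0.77, Rpl27a -0.62 and -0.75, Rpl32 -0.72 and -0.99, Rps15a -0.60 and -0.55, Rps20 -0.86 and -0.37, and Rplp2 -0.06 and -0.10. Rps3a1 had -0.33 and -1.27 and Rps3a2 had -1.71 and -0.52. None of these 10 genes was higher in the WT RIP by the limits used, and Rps2, Rps24, Rps27l and Rps3a3, the other 4 with a prediction, had too few reads to be tested.

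When each RIP was divided by its own Input before WT was set against KO, 28 genes could be tested untreated and 31 with LPS. Their medians were -1.30 and -1.24, against 0.01 and -0.05 over all genes. Untreated, 0 were higher and 17 lower, where 17.5% and 17.0% of all genes were, and with LPS 0 were higher and 15 lower, where 16.5% and 22.6% were.

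**Figure D4:**
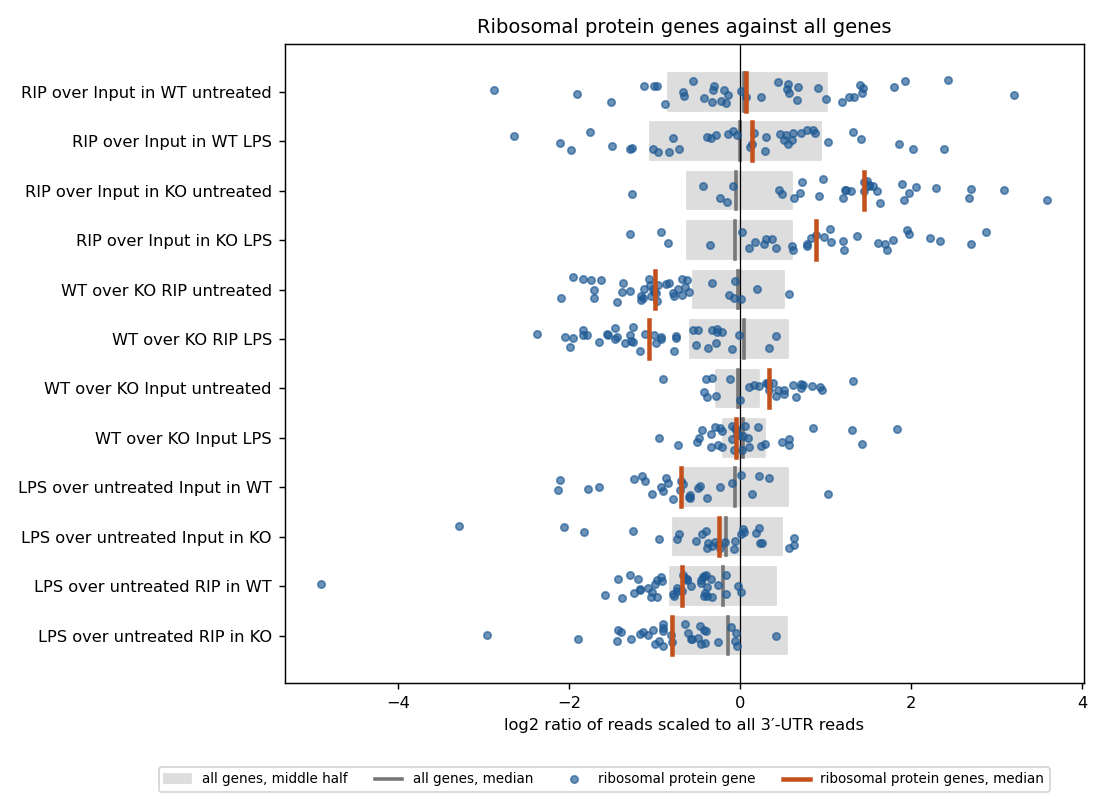
Log2 ratios of ribosomal protein genes with at least 20 reads in the pair (points) in the 12 comparisons, with their median (orange bar) and, in grey, the median and the middle 50% of all genes. The medians stand farthest from those of all genes in KO RIP over Input (1.45 and 0.89) and in WT over KO RIP (-1.0 and -1.06).

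The authors' MACS peaks, called in each RIP against its Input, overlapped 7 ribosomal protein regions in the untreated WT RIP (8.75%, against 6.83% of all genes) and 10 in the LPS WT RIP (12.5% against 15.4%). In the KO RIPs they overlapped 11 (13.8% against 1.03%) and 8 (10% against 1.17%). The highest peak score of the family was that of Rps3a2 in each RIP, at 220 and 294 in WT and 441 and 342 in KO. Rps3a2 is an annotated processed pseudogene. Its region holds the same 27 bases as the regions of Rps3a1 (chr3:86137962-86137988, - strand) and Rps3a3 (chr13:108671398-108671424, + strand). A 100-base read reaches beyond these 27 bases. The last 100 bases were identical at 1 other genomic place for Rps3a1, at 2 for Rps3a2 and at 0 for Rps3a3. The shared 27 bases are shown with the CPE letters in capitals.
Rps3a1: aatccagatTTTTAATagtgacaaata
Rps3a2: aatccagatTTTTAATagtgacaaata
Rps3a3: aatccagatTTTTAATagtgacaaata
The Rps3a2 copy lies at chr14:88122987-88123013 (- strand). Rps3a1 and Rps3a2 had 55 reads each and Rps3a3 had 1.

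The Inputs of both genotypes were compared to ask whether the mRNAs themselves differed. Untreated, the summed reads of all 80 genes gave a WT over KO ratio of 0.31 (0.21 to 0.42), and the 29 genes tested had a median of 0.33 against -0.02. Rpl13, Rpl27a, Rpl29, Rpl41 and Rpsa, or 5 of 29, were higher in WT, where 3.5% of all genes were, and 0 were lower, where 5.4% were. With LPS the sum gave -0.05 (-0.15 to 0.05), and of 34 genes with a median of -0.05 against 0.04, Rpl4 and Rpl21 were higher (2, with 5.9% of all genes) and Rps15 was lower (1, with 4.39%). Rpl41 had untreated and LPS ratios of 0.74 (0.48 to 0.99) and -0.06 (-0.29 to 0.16), and Rpsa of 0.71 (0.28 to 1.15) and -0.10 (-0.55 to 0.36).

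LPS was set against no treatment in each genotype to ask how these mRNAs changed with activation. Ribosomal protein reads were a smaller part of the WT Input with LPS, with a summed ratio of -0.66 (-0.76 to -0.56) and a median of -0.69 over 29 genes, against -0.06 over all genes. Of these 29, 11 were lower, where 24.3% of all genes were, and 0 higher, where 20.1% were. In the KO Input the sum gave -0.29 (-0.39 to -0.19) and the median of 29 genes was -0.25 against -0.16. There 4 of 29 were lower (28.9% of all genes) and 1, Rpl29, was higher (20.3%). Rpl10a, Rpl22 and Rps3, or 3 genes, were lower in both, which is 27.3% of the WT and 75% of the KO list.

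The RIPs moved the same way. In WT the summed ratio was -0.72 (-0.81 to -0.63) and the median of 43 genes -0.68 against -0.20, with 17 lower (30.6% of all genes) and 0 higher (18.8%). In KO the sum gave -0.62 (-0.73 to -0.51) and the median of 34 genes was -0.80 against -0.15, with 12 lower (26.9%) and 0 higher (19.3%). With library totals the WT RIP had 8 lower (14.6% of all genes), and with TMM factors 10 (20.7%). Rpl5, Rpl10a, Rpl22, Rpl27a, Rps3, Rps20 and Rpsa, or 7 genes, were lower in both RIPs.

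Rpl22 and Rps3 were lower with LPS in all 4 pairs. Rpl22 had 120 and 78 reads (untreated, then LPS) in the WT Inputs, 187 and 59 in the KO Inputs, 174 and 126 in the WT RIPs and 48 and 44 in the KO RIPs. Its ratios were -1.65 (-2.05 to -1.24), -1.83 (-2.25 to -1.41), -1.04 (-1.37 to -0.71) and -1.02 (-1.60 to -0.44) in that order. Rps3, a protein of the mRNA entry site that also has roles in DNA repair, had 26 and 15, 32 and 8, 32 and 18, and 15 and 7 reads in the same order. Its ratios were -1.78 (-2.68 to -0.89), -2.05 (-3.12 to -0.99), -1.38 (-2.19 to -0.56) and -1.90 (-3.12 to -0.67).

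Rpl10a was also lower in all 4 pairs, with 29 and 13 reads in the WT Inputs, 42 and 4 in the KO Inputs, 39 and 1 in the WT RIPs and 24 and 5 in the KO RIPs. The region behind these counts (chr17:28329064-28329280, 217 bases) belongs to a nonsense-mediated decay transcript. The other Rpl10a region, of 32 bases, had 28 reads over all libraries, from 1 to 5 in each, too few to show a change at the end of the coding mRNA. The region of Rpl36a also belongs to such a transcript.

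Rpl41, Rpl29 and Rpl7l1 were not lower in all 4 pairs. Rpl41 had LPS ratios of -0.58 (-0.81 to -0.35) in the WT Input and 0.22 (-0.04 to 0.47) in the KO Input. Rpl29 had -0.69 (-1.25 to -0.13) in the WT Input and 0.63 (0.04 to 1.22) in the KO Input. Rpl7l1, a paralog with roles in ribosome biogenesis, had 0.01 (-0.39 to 0.40) and -0.38 (-0.73 to -0.02) in the Inputs.

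**Figure D5:**
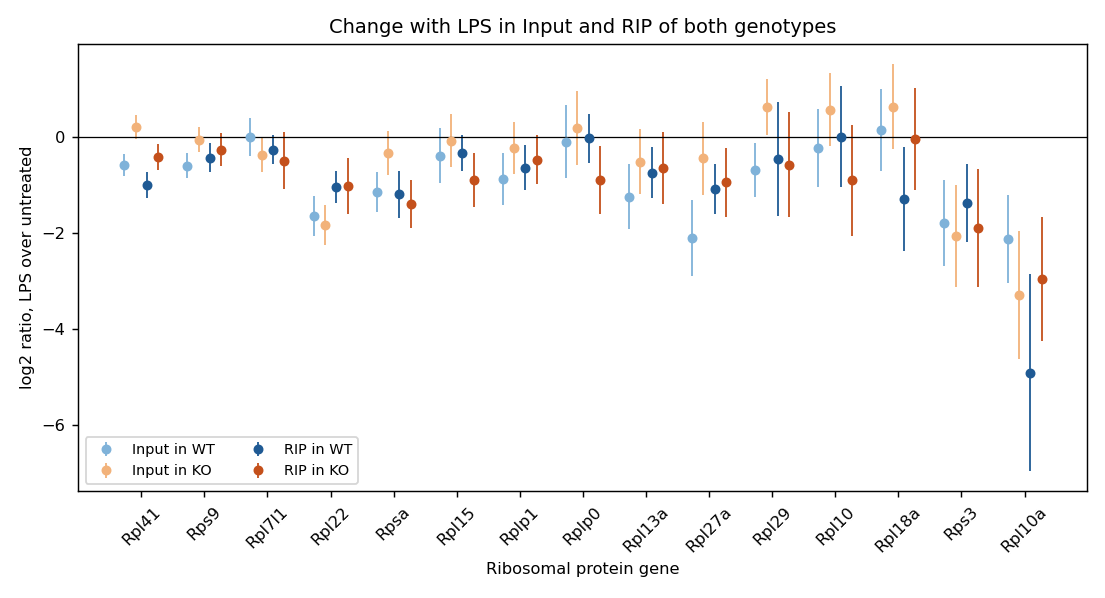
Log2 LPS over untreated ratio with 95% counting intervals for 15 named ribosomal protein genes in 4 series, the Inputs and RIPs of WT and KO. Rpl22, Rps3 and Rpl10a lie below 0 in all 4 series, and Rpl29 lies on opposite sides of 0 in the Inputs of WT (-0.69) and KO (0.63).

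By role, the P stalk was the best covered group. Rplp0, the stalk base, had 20 and 39 reads in the WT Inputs, 23 and 30 in the KO Inputs, 50 and 74 in the WT RIPs and 31 in each KO RIP. Its RIP over Input ratios were 0.44 (-0.30 to 1.17) and 0.51 (-0.04 to 1.07) in WT and 1.92 (1.15 to 2.68) and 0.83 (0.12 to 1.54) in KO. Rplp2 had 4 and 5 WT Input and 23 and 31 WT RIP reads, with ratios of 1.42 (0.03 to 2.81) and 2.02 (0.76 to 3.28). Of the 5S rRNA partners only Rpl5 had enough reads, and Rpl11 had 1 to 8 reads in each library.

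Of the 7 exit tunnel genes, 3 were tested between the LPS RIPs and all 3 were lower in WT (median -1.12, with 21.4% of all genes lower), and untreated 1 of 4 was, near the 18.4% of all genes. Rpl26, one of them, had 32 WT and 17 KO RIP reads untreated, a ratio of -0.96 (-1.79 to -0.13), and 32 and 24 with LPS, a ratio of -1.12 (-1.87 to -0.37). Of the 9 listed genes mutated in Diamond-Blackfan anaemia, Rpl5 was the one with enough reads in most pairs. Rps6, the substrate of S6 kinase, had 0 or 1 reads in the Inputs and 4 to 9 in the RIPs and was not tested.

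The paralogs Rps27l and Rpl22l1 had few reads. Rps27l, a p53 target, had 0 reads in both WT Inputs and 15 and 13 in the WT RIPs. Set against a floor of 3 reads in the library with 0, this was 2.79-fold untreated and 3.30-fold with LPS. Such folds leave out the counting error of the reads seen, so they are not lower limits. In the KO it had 0 and 3 Input reads and 0 and 5 RIP reads. Rpl34 had 17 reads in the untreated WT and 0 in the untreated KO RIP, 1.59-fold over the floor, and 16 and 11 with LPS. Rps3a1 and Rpl7a each had 10 reads in the LPS KO RIP and 0 in its Input, 5.75-fold over the floor.

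Ribosomal protein genes have many pseudogenes, and 61 of the 80 have at least 1 annotated under their name, up to 24 for Rpl31. The last 100 bases of the region were found at another genomic place, with at least 90 identical bases, for 40 of 80 genes (50%) and for 10.9% of all genes. At least 5 such places were found for 28 (35%) against 2.63%, and an identical place for 18 (22.5%) against 2.71%. The 40 genes with no other place had a median of 104 reads, the 12 with 1 to 4 places 45.5 and the 28 with 5 or more 45. Their median region lengths were 264, 85.5 and 46 bases in that order, so copies and length cannot be told apart here. Rpl7l1 had the most, with at least 1011 other places (the search limited the matches per chromosome), 0 of them identical. Rpl41 had 11, Rplp1 had 10, Rps9 had 1 and Rpl22 had 0. The search counted any matching place, so such places need not be pseudogenes. The medians of both sets lay on the same side in the KO RIP over Input, at 1.07 and 0.61 with another place and 1.5 and 1.07 without. Between the RIPs they were -1.06 and -1.26 with another place and -0.97 and -0.84 without.

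Rows named as pseudogenes or retrogenes were counted apart from the 80 genes. Rps27rt, a retrogene of Rps27, had 26 and 30 reads in the WT Inputs, 24 and 33 in the KO Inputs, 57 and 76 in the WT RIPs and 11 and 12 in the KO RIPs. Its WT over KO RIP ratio was 0.44 (-0.46 to 1.34) untreated and 1.05 (0.20 to 1.90) with LPS. Rpl9-ps6 had -0.87 (-1.69 to -0.05) and -1.66 (-2.38 to -0.93), and Rps26-ps1 had -1.69 (-2.58 to -0.79) and -1.46 (-2.23 to -0.70). Rpl10-ps3 had 18 and 22 reads in the WT Inputs and 6 and 3 in the WT RIPs, with RIP over Input ratios of -2.28 (-3.53 to -1.03) and -2.92 (-4.45 to -1.39). Parent and copy cannot be told apart where their sequences match.

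Other 5′ TOP mRNAs, such as those of translation factors, were read beside the ribosomal protein genes. Of 12 tested in the KO, 9 were higher in the untreated RIP than in Input (median 1.44) and 7 with LPS (1.11), with 0 and 1 lower, where 21.1% and 22.4% of all genes were higher. Between the RIPs 9 of 12 were lower in WT untreated (-1.20) and 6 of 11 with LPS (-0.62), where 18.4% and 21.4% of all genes were lower, and 0 were higher, where 15.1% and 19.3% were. With LPS, 6 of 12 were lower in the WT Input, where 24.3% of all genes were, and 4 of 12 in the KO Input, near the 28.9% of all genes. In the WT RIP 7 of 12 were above Input in each condition (31.4% and 31.9% of all genes), with medians of 0.94 and 0.87. There 2 of 12 were lower untreated and 4 of 12 with LPS (29.8% and 34.4% of all genes). The summed reads of all 19 listed genes gave 0.30 (0.21 to 0.40) untreated and 0.30 (0.20 to 0.39) with LPS. These values lay above those of the ribosomal protein genes, a difference that was not tested.

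Other lists were read in the same comparisons. Mitochondrial ribosomal proteins had KO RIP over Input medians of 0.16 (24 tested, 6 higher and 1 lower, where 21.1% and 18.1% of all genes were) and -0.28 (33 tested, 4 and 7, where 22.4% and 21.7% were), and WT over KO RIP medians of -0.25 and 0.07. Ribosome biogenesis factors had 0.22 and -0.20 in the KO and 0.05 and 0.21 between the RIPs. The ribosomal proteins that the naming rule leaves out, such as Fau, had WT over KO RIP medians of -1.35 and -1.56, with 3 of 3 and 2 of 3 lower, farther from all genes than the medians of the 80-gene family. Macrophage markers, which are no translation genes, had -0.83 and -1.04, with 5 of 9 lower in each condition (18.4% and 21.4% of all genes), close to the ribosomal protein medians, and Lyz2 alone had 1587 and 1751 reads in the KO RIPs.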

How the data were processed

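RIP and Input libraries of WT and CPEB4 KO BMDMs were analysed from 4 deposited tables, which hold the same count columns. The authors aligned single-end reads of 100 bases to mm10 with Bowtie2 2.2.2 in local mode, which does not splice, removed duplicates (sambamba), and then counted the overlaps with 3′-UTRs of the Ensembl annotation, with both lanes summed. How reads with several places were treated is not given in the sources used here. The deposited counts are raw reads. The deposited RPKM values were used only to recover library totals, the deposited score is the highest MACS 1.4.2 peak over a region, and CPE predictions are the authors' own. Columns of the authors' fold changes and p-values were not used.

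Of 31117 regions, 495 had no symbol (0.902% to 1.04% of reads) and were left out. One region per symbol, with the most reads over the 8 libraries, was kept. Ratios used 1 added read and 95% normal intervals from the counts, and scripts were tested on simulated data. These intervals, the Wilson intervals and the floor of 3 reads cover counting error only. Lists and genes were chosen with earlier results of these data known. Named genes were the 4 highest and 4 lowest with at least 50 reads in each comparison, the 10 with the most reads, those with a CPE prediction or peak, those of role lists, and those under 20 reads. Genes named beside these were chosen after their values were seen. Annotation and sequence came from GENCODE M21 and GRCm38 (RefSeq for start sites), where 14884 of 14925 transcripts were found and 91.2% of regions lay inside an exon. Copies were searched with BLAST 2.17.0. Alternatives were library totals, TMM factors (edgeR 4.0.16), median-of-ratios factors, other read minimums and regions, and sets of genes left out. Python 3.11.15, pandas 2.3.3 and R 4.3.3 were used.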

Additional observations from a re-analysis of the deposited data

Results flagged for a closer look

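Rpl41 had RIP over Input ratios on opposite sides of 0 in the genotypes, -0.88 in WT and 1.23 in KO untreated, a difference of -2.11 on the log2 scale, and -1.29 and 0.61 with LPS, a difference of -1.89. Rpsa had -0.97 in WT and 1.49 in KO untreated, a difference of -2.46. Rpl29 changed with LPS by -0.69 in the WT Input and 0.63 in the KO Input, a difference of -1.32. Each of these rests on 1 library per condition, and the differences were not tested. Rps27rt, a retrogene row outside the 80 genes, was higher in the LPS WT RIP than in the LPS KO RIP by 1.05, with 76 and 12 reads.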

How the results depend on the processing

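Library totals, TMM factors and median-of-ratios factors shift the ratios of all genes alike. They therefore cannot change the distance between the median of the ribosomal protein genes and that of all genes. This distance kept its sign under every other alternative run for KO RIP over Input (1.05 to 1.56 untreated, 0.74 to 1.12 with LPS) and for WT over KO RIP (-1.01 to -0.55 and -1.22 to -0.58). It also did for LPS over untreated in the WT Input (-0.73 to -0.48), the WT RIP (-0.58 to -0.24) and the KO RIP (-0.78 to -0.32). It changed sign in WT RIP over Input and in the LPS ratio of the KO Input. The number of genes past the limits between the LPS RIPs was 8 with library totals, 6 higher and 2 lower, which turned the direction of that count. With regions summed, the distance was 0.12 for untreated WT RIP over Input, -0.98 for WT over KO RIP with LPS and -0.48 for LPS in the KO RIP. With at least 50 reads it was -0.25 and 0.29 for WT RIP over Input (untreated, LPS), 0.74 for KO RIP over Input with LPS and -0.25 for WT over KO Input with LPS. With at least 1 read it was 0.30 and 0.28 for WT RIP over Input, 1.05 and 0.83 for KO RIP over Input, -0.55 and -0.58 for WT over KO RIP, and -0.48, -0.24 and -0.32 for LPS in the WT Input, WT RIP and KO RIP. Without genes that have a named pseudogene it was 0.11 and -0.21 for WT RIP over Input, 1.28 for untreated KO RIP over Input, -1.22 for WT over KO RIP with LPS, 0.11 for LPS in the KO Input and -0.58 in the WT RIP. The following were chosen after seeing the data. With the shortest region it was 0.23 for untreated WT RIP over Input and 1.11 for KO RIP over Input with LPS. Without the 9 densely filled genes it was 0.29 for untreated WT RIP over Input, -0.82 for WT over KO RIP with LPS and -0.21 for LPS in the KO Input. Without genes that have another genomic copy it was 0.39 and 0.29 for WT RIP over Input, 1.12 for KO RIP over Input with LPS, -0.89 for WT over KO RIP with LPS, 0.25 for untreated WT over KO Input, and -0.23 and -0.78 for LPS in the KO Input and KO RIP. The cause of these shifts was not tested. No paired analysis was possible because each condition is 1 library with its lanes summed, and no replicate could be left out. With a median of 56 reads per gene over 8 libraries, depth limited the genes tested to 29 to 43 of 80 in the 12 comparisons, and to 28 and 31 where each RIP was first divided by its Input.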
